A study of Mus musculus with 4 samples.

Results

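The cholesterol synthesis genes and SREBP2 targets described here were 7 genes, taken from the deposited expression table by their symbols out of 24138 rows. They comprised Srebf2, which encodes the transcription factor SREBP2, and Insig1, which encodes an endoplasmic reticulum protein that retains SREBP2 when sterols are plentiful. The remaining 5 encode enzymes of the pathway, namely Hmgcs1, Idi1, Fdps, Sqle and Lss. Expression was measured by RNA sequencing of liver from 4 male mice of the strain C57BL/6J at an age of 18 weeks. All 4 animals, per their labels, had been given a diet named FAT-MASH, which is used as a model of metabolic dysfunction-associated steatohepatitis (MASH), and had been treated with resolvin D1 (RvD1), a lipid mediator made from docosahexaenoic acid. The 4 livers form 1 group and are called livers 1 to 4 after their labels. Every liver had received both the diet and RvD1, so the values describe treated animals, and no effect of either can be read from them.

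Cells make cholesterol from acetyl-CoA through mevalonate, isoprenoid diphosphates, squalene and lanosterol, and liver is a main site of this synthesis. SREBP2 is made as a precursor in the endoplasmic reticulum membrane, where it is bound to the escort protein SCAP. When membrane sterols are low, the complex leaves INSIG, travels to the Golgi and is cleaved by the proteases S1P and S2P, and the released fragment activates genes of cholesterol synthesis and uptake, Insig1 and its own gene among them. SREBP2 works at sterol response elements in promoters, usually beside the factors NF-Y, which binds the CCAAT box, and Sp1, which binds GC boxes.

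Promoters are shown so that the letters of these motifs can be seen. The genes were chosen as parts of a pathway that SREBP2 is known to drive, so the presence of such motifs is not independent of the choice. RefSeq's promoter table for GRCm38.p6 held 5 of the 7, and Sqle and Fdps had no entry. Each window is the 250 bases before the start that this table uses. That of Lss is counted below but not printed, since RefSeq's gene span for Lss begins inside it. Sequences are given on the plus strand, 5′ to 3′. Capitals mark CCAAT boxes, which read ATTGG on the strand printed, and the sterol response element form TCACNCCA.
Srebf2, chr15:82147019-82147268: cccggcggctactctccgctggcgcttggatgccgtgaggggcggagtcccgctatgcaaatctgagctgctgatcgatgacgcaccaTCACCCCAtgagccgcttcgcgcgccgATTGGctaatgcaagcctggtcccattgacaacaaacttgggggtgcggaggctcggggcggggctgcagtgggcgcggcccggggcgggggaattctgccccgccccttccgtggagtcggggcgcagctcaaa
Hmgcs1, chr13:119690101-119690350: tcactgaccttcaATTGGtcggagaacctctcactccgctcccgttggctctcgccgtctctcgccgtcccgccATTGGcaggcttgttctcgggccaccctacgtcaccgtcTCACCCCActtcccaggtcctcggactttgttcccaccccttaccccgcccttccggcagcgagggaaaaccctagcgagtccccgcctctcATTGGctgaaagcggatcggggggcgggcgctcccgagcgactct
Insig1, chr5:28071162-28071411: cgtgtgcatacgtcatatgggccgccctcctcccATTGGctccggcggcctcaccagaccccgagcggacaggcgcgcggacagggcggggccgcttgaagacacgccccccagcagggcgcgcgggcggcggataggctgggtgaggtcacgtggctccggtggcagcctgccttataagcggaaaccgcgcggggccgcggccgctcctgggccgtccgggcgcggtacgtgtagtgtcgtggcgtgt
Idi1, chr13:8885356-8885605: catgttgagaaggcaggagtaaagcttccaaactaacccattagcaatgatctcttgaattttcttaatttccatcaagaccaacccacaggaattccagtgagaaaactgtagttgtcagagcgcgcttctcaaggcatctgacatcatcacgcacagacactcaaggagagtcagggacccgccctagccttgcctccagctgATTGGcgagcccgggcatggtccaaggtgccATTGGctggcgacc

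A CCAAT box was present in all 5 windows on either strand, against 33.8% of 32851 promoters in the table and 35.1% of those of expressed genes. Hmgcs1 held 3 matches, Idi1 held 2, and Srebf2, Insig1 and Lss held 1 each. The same motif was found for 13 of the 14 other synthesis genes with an entry, counting a gene once where it had several entries. The GC box GGGCGG was likewise present in all 5 windows on either strand, but it was also present in 57.5% of the promoters of expressed genes. The longer sterol response element form TCACNCCAC matched Hmgcs1 alone among the 5, none of the 14 other synthesis genes, and 1.05% of all promoters. The shorter form TCACNCCA, which was chosen after the sequences had been seen and overlaps the longer form, matched Hmgcs1 and Srebf2, 1 of the 14 other synthesis genes, and 3.67% of all promoters. CACNCCAC, which also overlaps it, matched Hmgcs1 and Insig1, 1 of those 14, and 5.29% of all promoters. The E-box CACGTG matched Insig1, 3 of those 14, 6.02% of all promoters and 8.52% of those of expressed genes. These are matches of letters in a fixed window, and factor binding was not measured.

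All 7 genes were expressed in every liver. Levels are given as FPKM, fragments scaled by transcript length and by the number of mapped fragments, a unit that allows genes to be set side by side. The libraries held an estimated 18.8 to 20.1 M fragments each (M, mega), and 10541 genes averaged 1 FPKM or more, the level at which a gene was called expressed. In liver tissue fewer cells of a type and less RNA per cell cannot be told apart.

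Srebf2 (chromosome 15, 82147269 to 82204960) was at 11.02, 10.7, 13.0 and 10.7 FPKM in livers 1 to 4, with a mean of 11.4 ± 1.12 FPKM (SD, n = 4). As deposited, livers 1, 2 and 4 lay close together and liver 3 was above them. The highest liver exceeded the lowest 1.22-fold, and without liver 3 this fold range was 1.03. With each library scaled to the same sum, the fold range over the 4 livers was 1.34. Mir33, a microRNA gene inside an intron of Srebf2, has a row of its own with the same span and is listed at 0 in all 4 livers. Libraries made after poly(A) enrichment do not capture mature microRNAs, so this row does not measure miR-33.

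Insig1 (chromosome 5, 28071412 to 28078662) was at 184, 188, 121 and 97.4 FPKM in livers 1 to 4, with a mean of 148 ± 45.5 FPKM (SD, n = 4). Livers 1 and 2 were close to each other, and livers 3 and 4 were both lower. Its fold range of 1.93 was the largest of the 7 genes, and 8.23% of expressed genes had a fold range of at least 1.9. Without liver 4 the fold range was 1.56.

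Hmgcs1 (chromosome 13, 119690351 to 119708260), which encodes the cytosolic enzyme that forms HMG-CoA, was at 63.1, 51.5, 36.7 and 43.2 FPKM in livers 1 to 4. The mean was 48.6 ± 11.4 FPKM (SD, n = 4) and the fold range 1.72, with liver 1 highest and liver 3 lowest. Without liver 1 the fold range was 1.40, and without liver 3 it was 1.46.

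Idi1 (chromosome 13, 8885606 to 8892396), which encodes the isomerase of isopentenyl diphosphate, was at 5.46, 4.79, 3.44 and 4.24 FPKM in livers 1 to 4. Liver 1 was again highest and liver 3 lowest, with a mean of 4.48 ± 0.855 FPKM (SD, n = 4) and a fold range of 1.59. Without liver 3 the fold range was 1.29. The paralogue Idi2 was listed at 0 in livers 1 to 3 and at 0.0233 FPKM in liver 4.

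Sqle (chromosome 15, 59315092 to 59331193), which encodes squalene epoxidase, a rate-limiting enzyme of the later pathway, was at 9.14, 9.71, 7.001 and 5.80 FPKM in livers 1 to 4. Liver 2 was highest and liver 4 lowest, with a mean of 7.91 ± 1.83 FPKM (SD, n = 4) and a fold range of 1.67. Without liver 4 the fold range was 1.39.

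Fdps and Lss had fold ranges below the 1.34 of the median expressed gene as deposited, and of 1.34 and 1.35 with each library scaled to the same sum. Fdps (chromosome 3, 89093588 to 89101967), which encodes farnesyl diphosphate synthase, was at 204, 254, 217 and 207 FPKM in livers 1 to 4, a mean of 221 ± 23.2 FPKM (SD, n = 4). Its fold range of 1.25 rested on liver 2 and was 1.06 without it. Lss (chromosome 10, 76531605 to 76562226), which encodes the cyclase that forms lanosterol, was at 9.66, 8.36, 8.70 and 7.78 FPKM, a mean of 8.62 ± 0.789 FPKM (SD, n = 4) and a fold range of 1.24. The deposited span of Lss also covers 4930483K19Rik, an antisense transcript listed at 0 in livers 1 to 3 and at 0.0513 FPKM in liver 4. The labels do not say whether reads were counted by strand.

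**Figure D1:**
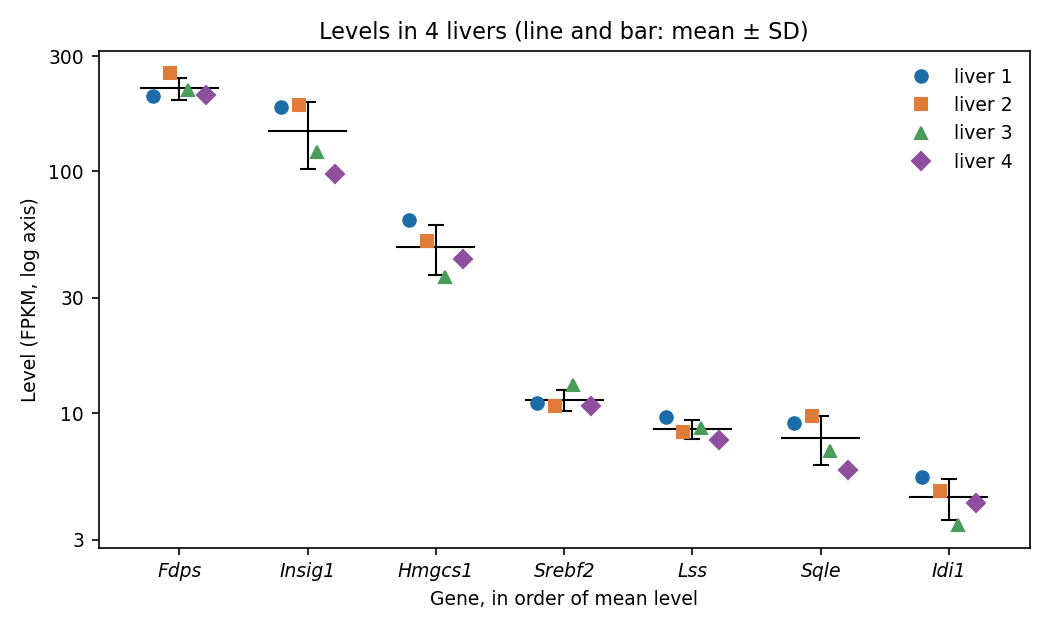
Level of each of the 7 genes in each of 4 livers, in FPKM on a log axis, with genes ordered by mean; points are livers, and the line and bar are the mean and SD over the 4 livers. Insig1, Hmgcs1, Sqle and Idi1 had livers 1 and 2 above livers 3 and 4, whereas liver 3 was highest for Srebf2 at 13.0 FPKM.

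The order of the means was Fdps, Insig1, Hmgcs1, Srebf2, Lss, Sqle and Idi1, a 49.2-fold span. Neighbours in this order had ranges over the livers that did not overlap, except Lss and Sqle, where Lss was the higher in 3 of 4 livers. The first of each other pair was the higher in 4 of 4 livers. The smallest two-sided p that an exact paired permutation over 4 livers allows is 0.125, so the order carries no test. Fragment numbers estimated from the longest annotated transcript were lowest for Idi1, at about 190 to 310 per liver, a counting error of up to about 7.25%, and for the other 6 genes the largest counting error was 4.63%.

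The 7 genes thus fell on both sides of a fold range of 1.5 between the highest and the lowest liver. This was reached by Insig1, Hmgcs1, Sqle and Idi1, that is 4 of 7, against 28.4% of expressed genes. The median fold range was 1.59, against 1.34 over expressed genes, and the median SD of log2(FPKM + 1) was 0.23 against 0.16. Leaving out liver 1 or liver 3 left 2 of the 7 genes past 1.5, which were Sqle and Insig1, against 22.9% and 16.4% of expressed genes. Without liver 4 the number was 3 of 7, with Sqle below 1.5, against 19.7% of expressed genes. Just inside the threshold was Idi1 at 1.59, and just outside was Fdps at 1.25.

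**Figure D2:**
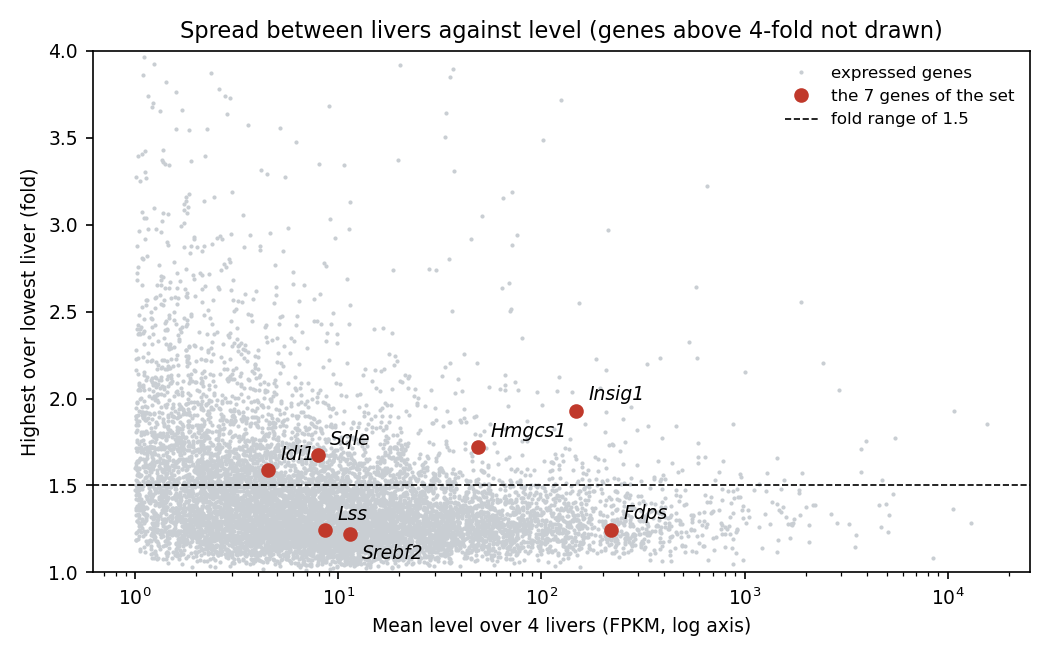
Highest over lowest liver (fold, vertical axis) against the mean level over 4 livers (FPKM, log axis) for expressed genes (grey points) and the 7 genes (red); the 81 genes above 4-fold are not drawn and the dashed line marks 1.5. Insig1 at 1.93, Hmgcs1 at 1.72, Sqle at 1.67 and Idi1 at 1.59 lie above the line, and Fdps, Lss and Srebf2 lie below it.

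The 4 genes with the wider spread had livers 3 and 4 as their 2 lowest livers, a pattern that was noticed in these values and is given without a test. It was found in 12.4% of expressed genes. In liver 4 all 7 genes lay below their own mean, also with each library scaled to the same sum. Of expressed genes 60.8% lay above theirs in liver 4 as deposited, and this share depends on the scaling. The median deviation of the 7 genes on the log2(FPKM + 1) scale was 0.21, 0.11, -0.13 and -0.13 in livers 1 to 4, against -0.01, -0.02, -0.01 and 0.04 for expressed genes. These medians moved when a liver was left out. That of liver 1 was 0.11 without liver 4, that of liver 2 was -0.00481 without liver 3, 0.07 without liver 4 and 0.18 without liver 1, and that of liver 3 was -0.04 without liver 2, -0.06 without liver 1 and -0.25 without liver 4. That of liver 4 was -0.09 without liver 1. With each library scaled to the same sum, livers 3 and 4 were at -0.10 and -0.23. That scaling also shifted expressed genes, by a median of 0.04 in liver 3 and -0.09 in liver 4. In livers 1 and 2, 5 of 7 genes lay above their own mean in each, against 47.2% and 45.1% of expressed genes. In liver 3 the number above was 2 of 7 as deposited and 3 of 7 with each library scaled to the same sum, against 47% of expressed genes as deposited. Each deviation is taken from the mean of the same 4 livers, so these counts are not independent of each other.

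Srebf2 did not share this order. It was highest in liver 3, where Hmgcs1 and Idi1 were lowest. The ratio of Insig1 to Srebf2 was 16.7, 17.6, 9.26 and 9.09 in livers 1 to 4, and the ratio of Hmgcs1 to Srebf2 was 5.72, 4.82, 2.81 and 4.03. Both ratios were higher in livers 1 and 2 than in livers 3 and 4. Insig1 and Hmgcs1 alone already had this order and Srebf2 spanned 1.22-fold, so the order of the ratios is not a separate result.

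Pairs of the genes differed in how closely they moved together, measured as the root mean square difference of their log2(FPKM + 1) deviations over the 4 livers. Hmgcs1 and Idi1 were the closest of the 21 pairs at 0.09, and Srebf2 and Insig1 the farthest at 0.44. Genes outside the set lay nearer to each of the closest pair, such as Cyp4a14 to Hmgcs1 at 0.05 and Gm10768 to Idi1 at 0.01. The ratio of Hmgcs1 to Idi1 was 11.6, 10.8, 10.7 and 10.2 in livers 1 to 4, a 1.13-fold range where each gene alone spanned more than 1.5-fold. Sqle and Insig1 were also close, at 0.14, and the ratio of Sqle to Insig1 spanned 1.20-fold. Srebf2 and Lss lay 0.13 apart, with both deviating little from their means.

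**Figure D3:**
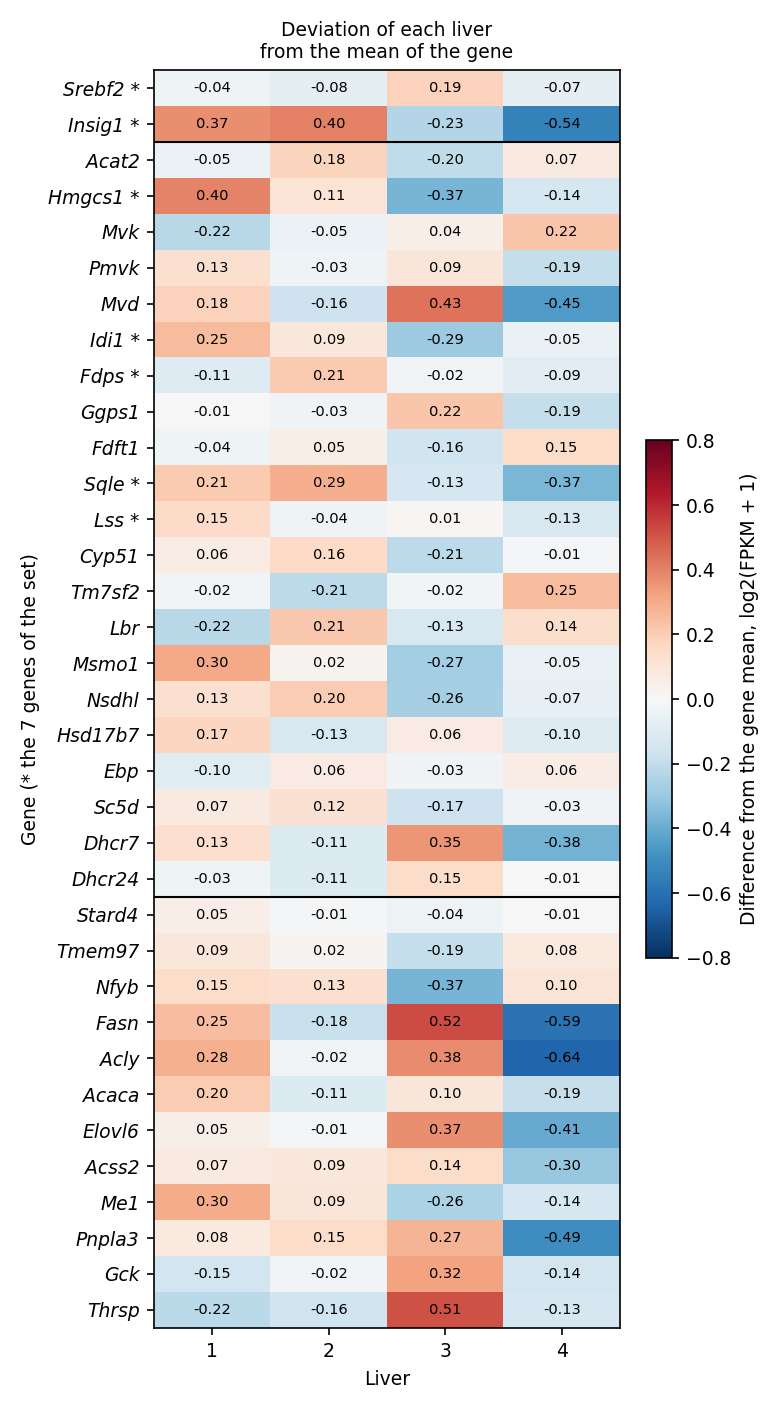
Difference of each liver from the mean of the gene on the log2(FPKM + 1) scale (colour and printed value) for Srebf2 and Insig1, for 21 synthesis enzymes in pathway order, and for sterol handling and fatty acid synthesis genes; asterisks mark the 7 genes. Insig1 ran from 0.40 in liver 2 to -0.54 in liver 4, and Fasn from 0.52 in liver 3 to -0.59 in liver 4.

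A further 16 enzymes of the pathway were examined and all were expressed. Together with the 5 enzymes above they spanned a 151-fold range of mean levels, from Ggps1, which makes geranylgeranyl diphosphate on a side branch, at 1.899 FPKM to Sc5d, a late sterol desaturase, at 287 FPKM. By mean level Fdps ranked 3 of 21, Hmgcs1 7, Lss 16, Sqle 17 and Idi1 19. Idi1 was thus followed only by Lbr and Ggps1. The steps next to Idi1 were uneven, since Mvd, the enzyme before it, had 7.85 ± 2.34 FPKM and Fdps, the enzyme after it, had 221 ± 23.2 FPKM (each SD, n = 4). The ratio of Fdps to Idi1 was 37.4, 53.1, 63.0 and 48.9 in livers 1 to 4.

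**Figure D4:**
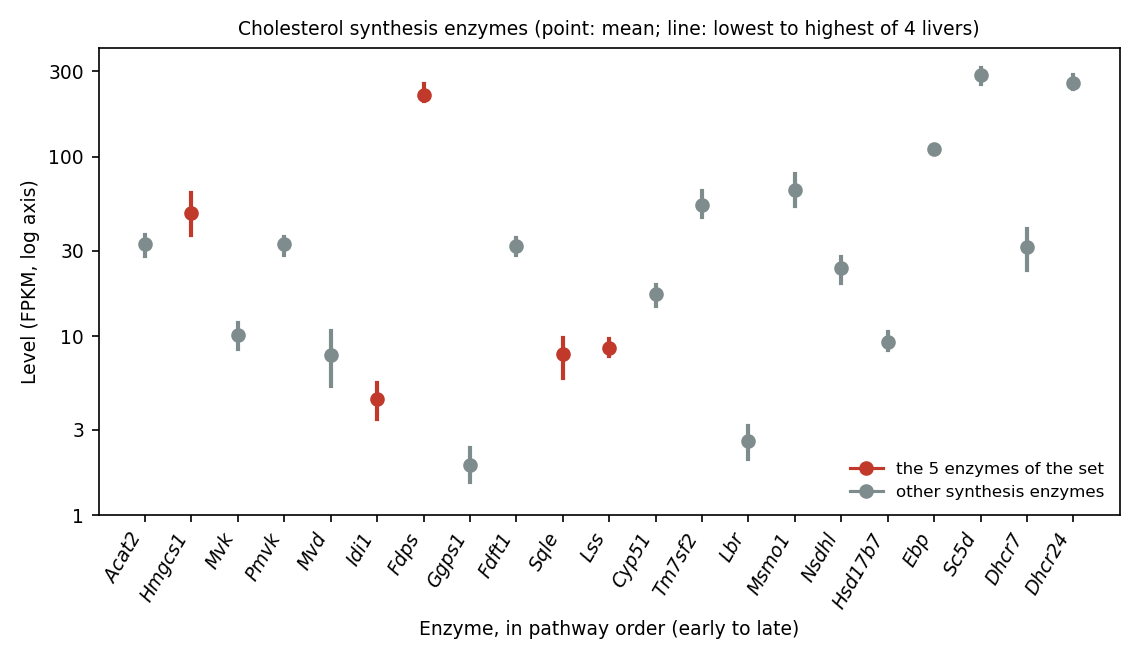
Level of 21 cholesterol synthesis enzymes in FPKM on a log axis, in pathway order from left to right; points are means and lines run from the lowest to the highest of 4 livers, with the 5 enzymes of the set in red. Means ran from 1.899 FPKM for Ggps1 to 287 FPKM for Sc5d, and Fdps at 221 FPKM stood between Idi1 at 4.48 FPKM and Ggps1.

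Among these 16 enzymes 5 had a fold range of at least 1.5, against 28.4% of expressed genes, and the median fold range was 1.35. Msmo1, a methylsterol oxidase, was at 80.1, 65.8, 53.3 and 62.5 FPKM in livers 1 to 4, with liver 1 highest and liver 3 lowest as for Hmgcs1 and Idi1. Nsdhl, Cyp51 and Sc5d also had livers 3 and 4 as their 2 lowest, so that this order was found for 4 of the 16, against 12.4% of expressed genes. A different order, with liver 3 highest and liver 4 lowest, was found for Mvd, Ggps1 and Dhcr7, 3 of the 16, and for 7.29% of expressed genes. In liver 4, 6 of the 16 enzymes lay above their own mean, against 60.8% of expressed genes, both as deposited. Neither was counted with each library scaled to the same sum, which shifted expressed genes in liver 4 by a median of -0.09. Dhcr7, which catalyses a last step of the pathway, was at 33.7, 28.4, 39.5 and 23.4 FPKM.

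The machinery that holds, moves and cleaves SREBP2 was expressed throughout. Scap, the escort protein, had 26.0 ± 1.63 FPKM, and Mbtps1 and Mbtps2, which encode S1P and S2P, had 17.0 ± 1.02 and 2.26 ± 0.428 FPKM (each SD, n = 4). Insig2, the paralogue of Insig1, was at 79.0, 73.5, 60.02 and 84.2 FPKM. As deposited, its highest liver was liver 4, in which Insig1 was lowest. Liver 4 also had the largest sum of FPKM, at 570681 against 524394 in liver 1. The order of these livers for Insig2 therefore depends on the scaling. Srebf1, which encodes the related factor that drives fatty acid synthesis, had 171 ± 29.6 FPKM (SD, n = 4). Of the 6 genes for sterol-dependent protein degradation, 1 had a fold range of at least 1.5, against 28.4% of expressed genes. That gene was Mylip (a ubiquitin ligase), at 2.51, 3.93, 2.80 and 3.04 FPKM.

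Tmem97 and Stard4 are known SREBP2 targets of cellular sterol handling. Tmem97, which binds the lysosomal cholesterol transporter NPC1, was at 103, 98.4, 84.5 and 102 FPKM in livers 1 to 4, with liver 3 lowest and a fold range of 1.22. Stard4, a cytosolic sterol carrier, had 14.8 ± 0.430 FPKM (SD, n = 4) and a fold range of 1.07. Nfyb, a subunit of NF-Y, had 10.2 ± 1.78 FPKM (SD, n = 4) and a fold range of 1.49. Npc1l1, the sterol uptake transporter, is listed at 0 in all 4 livers.

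A list of 11 genes covered cholesterol export, storage, lysosomal transport and conversion to bile acids, and the oxysterol receptors Nr1h3 and Nr1h2. As deposited, 7 of the 11 lay above their mean in liver 4, close to the 60.8% of expressed genes. All 7 SREBP2 genes lay below theirs in that liver. The 7 of 11 and the 60.8% were not counted under other scalings. Abcg5 and Abcg8, the sterol exporters of the canalicular membrane, had 120 ± 14.1 and 64.6 ± 5.26 FPKM (each SD, n = 4), and both were highest in liver 4. The deposited table gives this pair a shared span. Cyp7a1, the rate-limiting enzyme of bile acid synthesis, was at 46.0, 62.0, 38.8 and 66.6 FPKM. Fatty acid synthesis genes, which are targets of SREBP1, were lowest in liver 4 for 6 of 9 expressed genes, against 18.1% of all expressed genes, and highest in liver 3 for 7 of 9, against 26.8%. In liver 4 none of these 9 genes lay above its own mean, as for the 7 SREBP2 genes. Their median deviation was 0.32 in liver 3 and -0.30 in liver 4, beside -0.13 and -0.13 for the 7 SREBP2 genes. Scd1 is listed at 0 in all 4 livers, and the Cufflinks programs can give 0 where an estimate fails.

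Genes with a profile like that of the 7 were sought among 4543 other genes averaging 10 FPKM or more, by the same root mean square difference over 4 livers. Closest to the median profile were Prpf38b, Srsf11, Zc3h11a, Pgd and Dedd2, at 0.04, 0.04, 0.04, 0.05 and 0.05. Closest to Insig1 was Arl4d, at 26.9, 29.0, 18.4 and 13.7 FPKM in livers 1 to 4 and a difference of 0.04, followed by Frmd4b at 0.09 and Malat1 at 0.13. Cyp4a14, S100a10 and Plac8 lay nearest to Hmgcs1, at 0.05, 0.06 and 0.07. Nearest to Idi1 were Gm10768, Plac8 and Tomm7, at 0.01, 0.03 and 0.03, and nearest to Sqle were Sparcl1, Dpt and Snhg20, at 0.06, 0.07 and 0.07. A likeness over 4 livers is a description of these values.

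Several other gene groups moved over the livers as well. Hepatocyte markers were abundant, with 6 of 7 expressed, while Alb is listed at 0. They summed to 35374, 31685, 31251 and 42602 FPKM in livers 1 to 4. As deposited, 6 of 6 lay above their own mean in liver 4, against 60.8% of expressed genes. Cps1 and Hnf4a did so by 0.09 and 0.03 on the log2(FPKM + 1) scale. Scaling each library to the same sum shifted expressed genes in liver 4 by a median of -0.09, so both counts depend on the scaling. The 4 stellate and fibroblast markers summed to 223, 284, 182 and 206 FPKM in livers 1 to 4, and 3 of them had livers 3 and 4 as their 2 lowest, against 12.4% of expressed genes. The 4 macrophage markers summed to 51.2, 62.8, 46.3 and 62.4 FPKM, the 3 endothelial markers to 9.52, 16.5, 10.8 and 12.7 FPKM, and the 4 cholangiocyte markers to between 17.6 and 21.9 FPKM. None of 3 adipocyte and none of 2 T cell markers reached a mean of 1 FPKM, and Plin1 and Lep are listed at 0. Of the red cell genes, the 2 rows of Hba-a1 were highest in liver 1, at 814 and 206 FPKM, and lowest in liver 3, at 308 and 55.3 FPKM, while Alas2 was at 55.8, 43.8, 64.0 and 57.0 FPKM and highest in liver 3. Of 9 acute phase genes 9 lay above their own mean in liver 2, against 45.1% of expressed genes, and 0 in liver 3, against 47%. Of these 9 genes 4 had livers 3 and 4 as their 2 lowest, against the same 12.4%. Among them Saa1 was at 2135 FPKM in liver 2 against 45.6 to 139 FPKM in the others. Of 9 expressed clock genes 5 had livers 3 and 4 as their 2 lowest, also against 12.4%, and Nr1d1, a clock repressor, was at 52.7, 39.3, 25.4 and 23.9 FPKM. Cry1, another clock repressor, ran the other way, at 2.88, 4.47, 5.85 and 6.03 FPKM, and Per1 and Per2 were highest in liver 3, at 11.6 and 8.82 FPKM. The hour at which tissue was taken is not given in the labels used here. The part of these groups in the profile of the SREBP2 genes was not tested.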

How the data were processed

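RNA was extracted from 4 livers and sequenced after poly(A) enrichment, per the labels. The authors' deposited table gives 1 value per gene and liver, taken to be FPKM from its values and from identifiers of the Cufflinks form, since its header names no unit. The submitters' processing notes name FastQC 0.10.1, Trim Galore 0.6.3, cutadapt, STAR 2.7.6a, Cufflinks 2.2.1 and mm10. Spans are those of the table with 1 added to each start. Cufflinks splits fragments among overlapping transcripts by a model, so values of shared loci are estimates. Columns were matched by the sample descriptions, and 0 were left unmatched.

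FPKM were used as deposited and, for deviations and SDs, as log2(FPKM + 1) (Python 3.11.15, pandas 2.3.3). Depth was estimated from genes with 1 transcript longer than 800 bases in GENCODE vM21, where the lowest values cluster at 1 fragment, and is approximate. The series holds 1 group, so no comparison between groups was made. The only test was Dixon's ratio of the gap to the range at 95% confidence, used for the flagged results. Whether the livers were sequenced in batches is not given in the sources used here. The 7 genes and the lists were chosen with earlier results of these data known. Of 111 listed genes, 110 were matched; some genes are not reported here. Named genes were the 7, the listed genes, the 5 nearest to their median profile and the 3 nearest to each gene with a fold range of at least 1.5. Mir33, Idi2 and 4930483K19Rik fall outside this rule and were named after their values were seen, as a paralogue or as genes at the same locus. The procedures were tested on simulated data. Alternatives were pseudocounts of 0.1 and 5, other minimum levels, scaling every library to the same sum, median-ratio scaling and leaving out each liver.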

Additional observations from a re-analysis of the deposited data

Results flagged for a closer look

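Of 59 expressed genes of the set and its pathway lists, 6 had 1 liver apart from the other 3, against 5.46% of expressed genes. The rule was Dixon's ratio of the gap to the range at 95% confidence, by which chance alone marks about 1 in 20. Values were as deposited, and the ratios were not recomputed under other scalings, which change them. Srebf2 was 13.0 FPKM in liver 3 and at most 11.02 FPKM in the others. Nfyb, a subunit of the CCAAT-binding factor NF-Y, was 7.56 FPKM in liver 3 and at least 10.9 FPKM in the others. Nr1h2, which encodes the oxysterol receptor LXR beta, was 25.7 FPKM in liver 3 and at most 21.2 FPKM in the others. Soat2, a cholesterol-esterifying enzyme, was 19.7 FPKM in liver 1 and at most 16.5 FPKM in the others. Acss2, an acetyl-CoA synthetase, was 61.3 FPKM in liver 4 and at least 79.9 FPKM in the others. Thrsp, a gene of lipogenesis, was 2012 FPKM in liver 3 and at most 1289 FPKM in the others.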

How the results depend on the processing

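No paired analysis was possible because the livers form a single group, with no other group to pair them with; genes were paired within livers only for the order of their means. The median SD over the 7 genes was 0.23, fell to 0.14 with a pseudocount of 5, which compresses low values by construction, and ranged from 0.18 to 0.27 with 3 livers. The median fold range was 1.59, lay between 1.56 and 1.58 under the 2 other scalings, and between 1.29 and 1.57 with 3 livers. The share of expressed genes with a fold range of at least 1.5 was 28.4%, 18.1% with a minimum mean of 5 FPKM, 41.7% with a minimum of 0.1 FPKM, and 16.4% to 22.9% when a liver was left out. Median deviations kept their sign under both pseudocounts and both scalings in all 4 livers, and those of livers 1, 3 and 4 also when another liver was left out. When a liver was left out, that of liver 2 lay between -0.00481, without liver 3, and 0.18, so its direction rested on liver 3. The cause was not tested. Both scalings left Hmgcs1, Sqle, Idi1 and Insig1 as the 4 genes past 1.5-fold. The largest shift that a scaling gave the median of expressed genes was -0.09 in liver 4, on the log2 scale. With 4 livers and no comparison group, the values show spread between animals, and at this depth Idi1 had the largest estimated counting error of the 7, whereas Insig1 had the largest spread between livers.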
